A study of Zea mays with 6 samples.

Results

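The leaf expression table lists microRNA precursor genes as entries of their own, and these entries are described here. They were all rows whose identifier begins with the maize microRNA gene prefix, zma-MIR, which gave 154 of the 39604 rows. They fall into 28 families by family number. RNA was sequenced from the 11th leaf of greenhouse-grown maize at vegetative stage 8, taken while the leaf was still developing and wrapped. The 6 strand-specific libraries were made from total RNA after removal of ribosomal RNA, and 3 came from wild type and 3 from homozygous hda108/hda108 mutants. HDA108 encodes a histone deacetylase, and neither the mutant allele nor the genetic background of the groups is given in the sources used here.

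In plants, a microRNA gene is transcribed by RNA polymerase II into a long primary transcript that folds into a stem-loop. The nuclease DICER-LIKE1 cuts the short mature microRNA out of the stem-loop, and an ARGONAUTE protein uses it to cut or silence mRNAs with a matching site. In leaves, microRNAs of this kind act on the regulators of leaf polarity, organ boundaries, cell proliferation and the change from juvenile to adult growth. The entries cover loci of precursors. Total RNA libraries of long fragments do not measure the mature microRNA, so the values do not speak of its level.

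The deposited table holds 1 FPKM value per genotype (fragments scaled to transcript length and to the mapped fragments of the library), deposited by the authors. How the libraries of a genotype were combined is not given in the sources used here. No difference has a replicate check, no p-value, SD or n can be given, and the depth behind the values is unknown. The column sums were 478867 FPKM (wild type) and 482019 FPKM (hda108). HDA108 itself (GRMZM2G136067, chromosome 4) was at 10.9 FPKM in the wild-type column against 3.06 FPKM in the mutant column. Of the 10 identifiers that carry a leaf marker name, 9 could be compared, and 7 were below 0 and 2 above 0 in the difference of log2 (FPKM + 0.5), mutant minus wild type, with a median of -0.74. The photosynthesis genes pdk1 (GRMZM2G306345, -1.29), me3 (-0.97), pep1 (GRMZM2G083841, -0.96), rca1 (-0.82) and rbcs1 (-0.74) were lower in hda108, pdk1 past 2-fold, and the young-leaf regulator rs2 was higher (0.50). Other identifiers named pdk1, GRMZM2G097821 (-0.08) and GRMZM2G107196 (-0.25), differed less, and another named pep1, GRMZM5G899080, was higher (0.33). The part of these leaf genes in the values of the precursor entries was not tested. The shoot meristem gene kn1 was at or below 0.0245 FPKM and the kernel storage gene zp27 at or below 0.0762 FPKM in both genotypes. The floral gene bde1 was listed at 0 in both, while the root hair gene rth3 went from 4.31 FPKM in wild type to 8.50 FPKM in hda108.

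Most precursor entries were listed at 0. In both genotypes 136 of the 154 entries (88.3%) had the value 0, against 22.1% of the other 39450 rows and 68.7% of the 1253 other rows whose locus spans under 400 bp. A listed 0 may stand for an estimate that failed, so it does not show that the precursor was absent. A value above 0 in at least 1 genotype was listed for 18 entries from 13 families. The remaining 15 families had no value. They include MIR156 with 11 entries, whose microRNA holds the plant in juvenile growth by repressing SBP-box genes. They also include MIR171 with 13 entries (GRAS genes), MIR395 with 15 entries (sulfate assimilation genes) and MIR399 with 10 entries (phosphate homeostasis). MIR160, MIR319, MIR393 and MIR2275 had 4, 4, 3 and 4 entries at 0. The family with the most entries, MIR169, had values for 3 of 17, and MIR164 for 3 of 8.

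**Figure D1:**
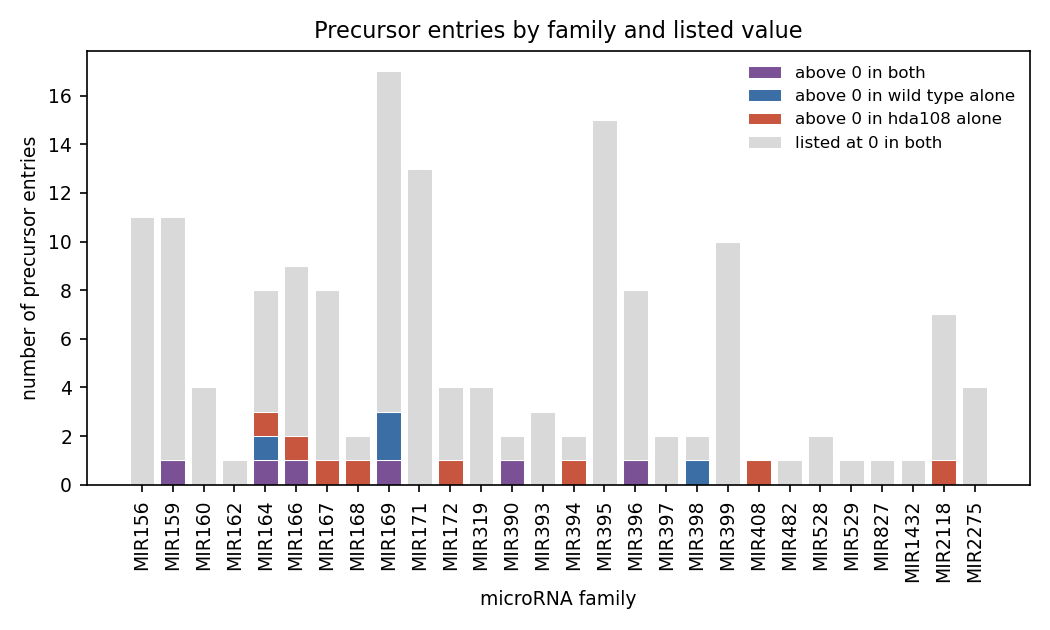
Number of precursor entries (vertical axis) in each of the 28 microRNA families (horizontal axis), split by whether the authors' FPKM value was above 0 in both genotypes, in wild type alone, in hda108 alone or in neither. Of the 154 entries 136 were at 0 in both, and MIR164 and MIR169 each had 3 entries with a value.

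Entries with a value in both genotypes numbered 6, and these were compared by a rule of size in place of a test. Values were taken as log2 of FPKM + 0.5, and the hda108 value minus the wild-type value had to be at least 1 or at most -1, which is 2-fold, while the mean of the 2 values had to be at least 1 FPKM. By that rule 3 of the 6 entries differed, 1 higher and 2 lower in hda108. Of all 21057 compared rows, 2.31% did so, 1.48% higher and 0.836% lower. Among the 193 other compared rows with loci under 400 bp it was 14.0%, with 15 higher and 12 lower. The 6 entries include MIR169j, whose locus entry of 4532 bp is shared with another gene. Without MIR169j, 2 of 5 entries differed, and these 5 spanned 167 to 271 bp. The median difference of the 6 entries was -0.03, that of all compared rows 0.06 and that of the other short rows 0.04. The entries thus did not lie on 1 side: 3 were above 0 and 3 below.

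MIR390a (chromosome 1, 292655930 to 292656111, B73 RefGen_v3) was the 1 entry at least 2-fold higher in hda108. It went from 1.45 FPKM in wild type to 4.52 FPKM in hda108, a log2 difference of 1.37 or 2.58-fold. In plants, miR390 starts the production of trans-acting small RNAs against auxin response factor genes, a part of leaf polarity. The other entry of the family, MIR390b, was listed at 0 in both genotypes.

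MIR396e (chromosome 4, 173329483 to 173329649) lay just inside the limit. It went from 16.3 FPKM in wild type to 32.3 FPKM in hda108, a difference of 0.97. The microRNA miR396 acts on growth-regulating factor (GRF) genes, which promote cell proliferation in leaves. The nearest row, GRMZM2G479330, lies 1268 bp away and had 3.52 and 3.71 FPKM, a difference of 0.07. Of the other 7 MIR396 entries, all were at 0 in both genotypes, among them MIR396a, which lies on the same chromosome at 173324332 to 173325043.

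MIR166a (chromosome 6, 84390220 to 84390433) was the most abundant of the entries with a value in both genotypes. The wild-type value was 25.3 FPKM and the mutant value 34.6 FPKM, a difference of 0.44. The microRNA miR166 restricts class III homeodomain-leucine zipper genes, such as maize rld1, to the upper side of the leaf.

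MIR164c (chromosome 6, 153550680 to 153550950) was lower in hda108. The wild-type value was 21.1 FPKM and the mutant value 10.2 FPKM, a difference of -1.02. The microRNA miR164 acts on NAC genes that mark organ boundaries. MIR164g, on the same chromosome at 138496098 to 138496269, had 1.47 FPKM in wild type and was listed at 0 in hda108. MIR164d went the other way, from 0 in wild type to 0.577 FPKM in hda108. Summed over the family the level was 22.6 FPKM for wild type and 10.8 FPKM for hda108, almost all of it from MIR164c.

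MIR169j (chromosome 2, 193348715 to 193353246) went from 6.95 FPKM in wild type to 3.19 FPKM in hda108, a difference of -1.01. Its locus entry is shared with a second gene, which makes the value uncertain. The microRNA miR169 acts on NF-YA genes, subunits of a CCAAT-box binding factor. The other MIR169 entries with a value, MIR169b with 2.30 FPKM and MIR169i with 1.06 FPKM, had it in wild type and were listed at 0 in hda108. The family sums were 10.3 FPKM (wild type) and 3.19 FPKM (hda108), but they rest on these 2 listed zeros and on the uncertain value of MIR169j. The other 14 entries were at 0 in both genotypes.

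MIR159f (chromosome 3, 25492247 to 25492462) went from 1.69 FPKM in wild type to 1.04 FPKM in hda108, a difference of -0.50. Its microRNA acts on GAMYB genes, and the other 10 entries of the family were at 0. The differences of MIR164c and MIR169j were near the limit, and with a pseudocount of 1 in place of 0.5 they were -0.98 and -0.92, no longer 2-fold. MIR390a kept a difference of 1.17 at that setting.

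**Figure D2:**
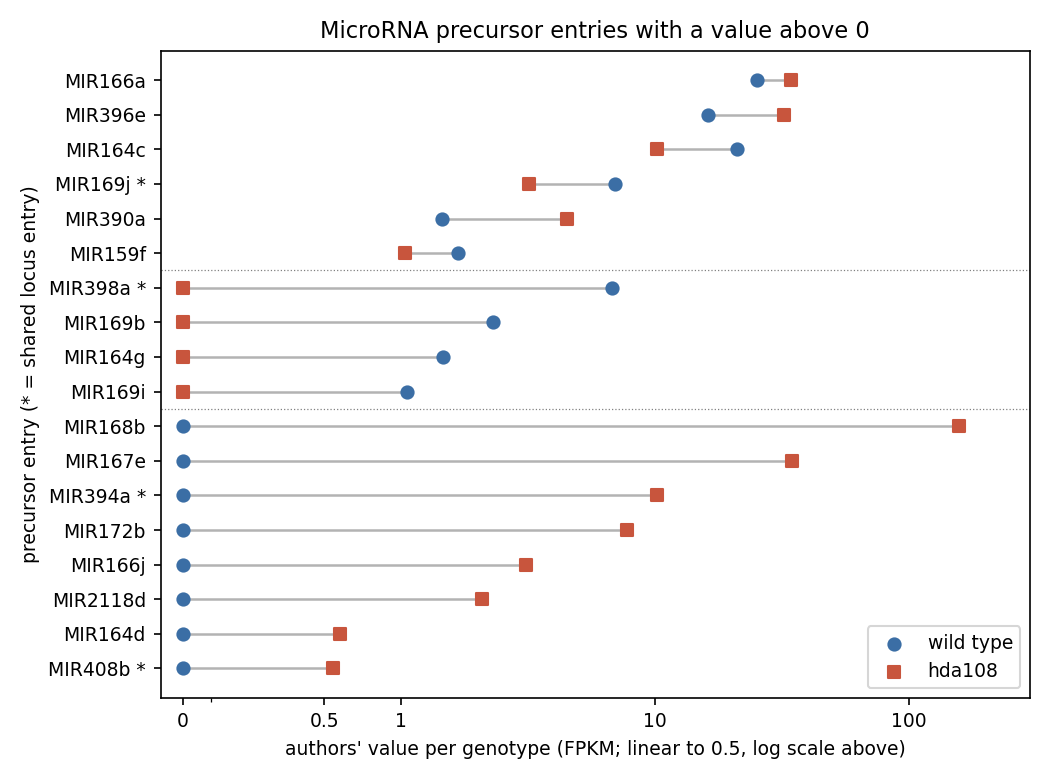
Authors' value in wild type (circles) and hda108 (squares) for the 18 precursor entries above 0 in at least 1 genotype, in FPKM on an axis that is linear to 0.5 and logarithmic above; an asterisk marks a locus entry shared with another row and grey lines join the genotypes. The 6 entries at the top have a value in both genotypes, the next 4 in wild type alone and the last 8 in hda108 alone.

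Values in 1 genotype alone were listed for 12 of the 154 entries, 8 of them in hda108 and 4 in wild type. Of all deposited rows, 6.33% were listed this way, 3.92% with the value in hda108 and 2.4% with the value in wild type. No fold was computed against a listed 0. Counting entries that reached 1 FPKM in at least 1 genotype, 10 of 16 were at 0 in the other, 6 of them with the value in hda108. Among all 21614 rows reaching 1 FPKM the share was 0.162%, with 0.12% at 0 in wild type and 0.0416% at 0 in hda108. It was 6.25% (14 of 224) among other rows under 400 bp and 17.2% (5 of 29) among other rows under 200 bp. The 10 entries are of all spans and include MIR394a and MIR398a, whose locus entries are shared with another gene. Of the unshared precursor entries under 200 bp that reached 1 FPKM, 8 of 10 were at 0 in the other genotype. The 29 other rows under 200 bp were not limited to unshared ones, and spans differ within that bound. Among unshared rows with any value above 0, it was 4 of 6 precursor entries and 7 of 32 other rows at 150 to 199 bp. At 100 to 149 bp it was 4 of 4 precursor entries and 1 of 1 other row.

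In hda108 alone, MIR168b (chromosome 4, 239639186 to 239639290) was listed at 158 FPKM. Its microRNA acts on ARGONAUTE1, the main effector protein of the pathway. MIR167e (chromosome 7, 9835377 to 9835496), of a family that acts on auxin response factor genes, was listed at 34.8 FPKM. MIR172b (chromosome 5, 215901573 to 215901699) had 7.79 FPKM. The microRNA miR172 acts on AP2-like genes such as glossy15 in the change to adult leaves. MIR166j (chromosome 7, 124574855 to 124575009) had 3.12 FPKM.

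MIR2118d (chromosome 2, 49919491 to 49919639) had 2.10 FPKM in hda108. Its family is known in grasses for starting the production of phased small RNAs in anthers, and its neighbour MIR2118b, 74 bp away, was at 0 in both genotypes. MIR394a (chromosome 5, 193871919 to 193877163) had 10.2 FPKM in hda108 and MIR408b (chromosome 8, 38493864 to 38494668) 0.540 FPKM, both with shared locus entries. The microRNA miR394 acts on an F-box gene of the meristem in Arabidopsis, and miR408 on genes of copper proteins. In wild type alone, MIR398a (chromosome 2, 170163011 to 170163393) had 6.81 FPKM, also with a shared entry. Its microRNA acts on copper/zinc superoxide dismutase genes.

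The values listed in 1 genotype alone followed the span of the locus. Among the 9 such entries with a locus entry of their own, the shortest, MIR168b with 105 bp, had the highest value. It was followed by MIR167e (120 bp) and MIR172b (127 bp), and the longest, MIR164d with 217 bp, had the lowest. Ordered by span, the value was lower at each next longer entry in 7 of 8 steps. The exception was the step from MIR2118d (149 bp, 2.10 FPKM) to MIR166j (155 bp, 3.12 FPKM). FPKM divides by transcript length, so at an equal number of fragments a shorter locus has a higher value. Whether that division accounts for the fall from 158 FPKM at 105 bp to 0.577 FPKM at 217 bp was not tested. How many fragments stood behind these values was not tested either, since the table gives no counts.

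The other short rows had the same order. Unshared rows listed at 0 in 1 genotype had a median value in the other of 1.54 FPKM at 150 to 199 bp (7 rows), 0.450 FPKM at 200 to 299 bp (45 rows) and 0.176 FPKM at 300 to 399 bp (58 rows). Precursor entries at 150 to 199 bp had 1.89 FPKM (4 entries). Of 90 unshared rows of any kind under 150 bp, 78 were precursor entries. Values above 0 were listed for 5 of these 90, namely MIR168b, MIR167e, MIR172b, MIR2118d and GRMZM2G498613 (109 bp, 81.1 FPKM). All 5 had them in hda108 alone. By contrast, the 5 unshared precursor entries with a value in both genotypes spanned 167 to 271 bp.

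**Figure D3:**
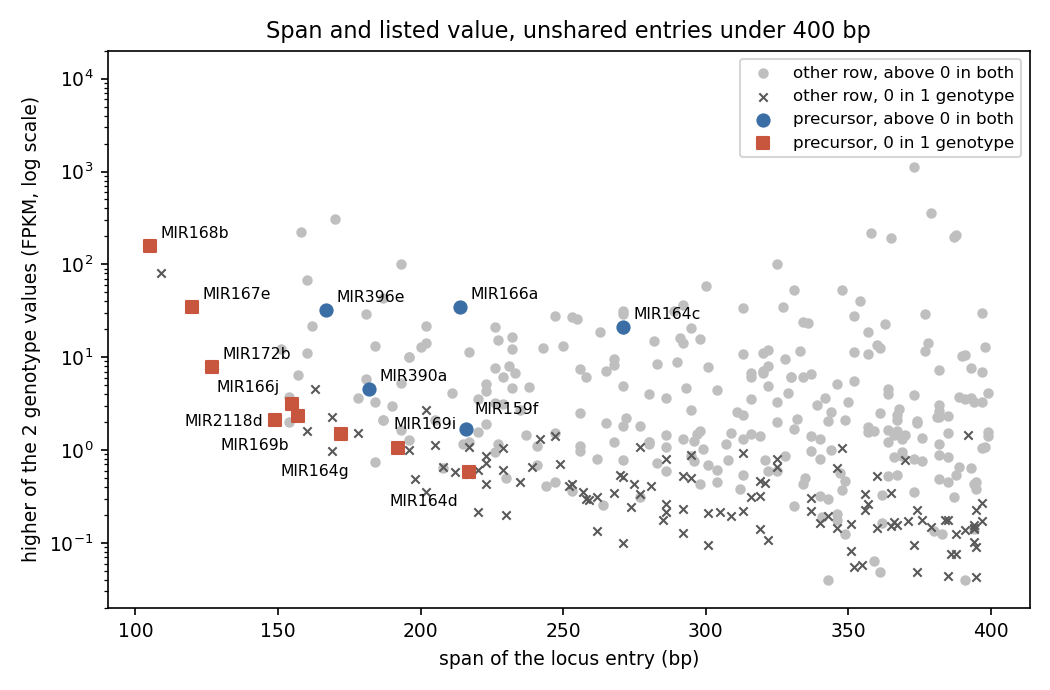
Higher of the 2 genotype values (FPKM, log scale) against the span of the locus entry in bp, for all unshared rows under 400 bp with a value above 0; squares and crosses are rows at 0 in 1 genotype, circles are rows above 0 in both. Precursor entries at 0 in 1 genotype descend from MIR168b at 105 bp and 158 FPKM to MIR164d at 217 bp and 0.577 FPKM, and MIR166a, MIR396e and MIR164c stand above the other precursor entries nearest to them in span.

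Precursor loci were of 2 kinds. Of the 154 entries, 104 were short loci of their own, spanning 66 to 271 bp with a median of 120 bp. The other 50 shared a locus entry with another row, and their median span was 1080 bp. Every entry of 400 bp or more, 43 in all, was a shared one, so its span is that of the joint locus and not of the precursor. Sharing was with another precursor for 4 entries (MIR169e with MIR169h and MIR396b with MIR396h, all at 0) and with another gene for 46. A value above 0 was listed for 4 of the 50 shared and 14 of the 104 unshared entries. No unshared entry overlapped another row.

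The genes that share a locus entry with a precursor were looked at next. The table gives no strand, so a longer transcript through the stem-loop and a gene on the other strand cannot be told apart. Of these 46 partner genes, 17 could be compared and 0 differed at least 2-fold, against 2.31% of all compared rows. Beside that share, a count of 0 among 17 says nothing particular of the partners. Their median difference was 0.08, with 10 above 0 and 7 below. Of the 42 precursors with a gene partner that were at 0 in both genotypes, 16 had a partner whose mean reached 1 FPKM.

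The partner of MIR168a, GRMZM5G899308 (chromosome 5), had values of 3.14 FPKM (wild type) and 3.58 FPKM (hda108), while MIR168a was at 0. The partner of MIR162, whose microRNA acts on DICER-LIKE1, was GRMZM2G482946 with 1.62 and 2.03 FPKM. The partner of MIR172c, GRMZM2G420571, had 13.6 and 14.8 FPKM. These 3 partners differed by 0.17, 0.25 and 0.11 on the log2 scale.

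The largest differences among the 17 compared partners were downward. GRMZM2G502560, with MIR167g, went from 1.998 FPKM in wild type to 1.03 FPKM in hda108 (-0.71). GRMZM2G551565, with MIR156d, had 4.13 and 2.41 FPKM (-0.67). For the 4 shared precursors with a value the partners were not alike. GRMZM2G078124, with MIR169j, went from 3.44 FPKM in wild type to 4.97 FPKM in hda108, opposite in direction to the precursor. GRMZM5G824689, with MIR398a, had 0.777 and 0.0912 FPKM, the same direction as the precursor. GRMZM2G113235, with MIR394a, had 0.171 and 0.143 FPKM beside the precursor's 0 and 10.2 FPKM. GRMZM2G097141, with MIR408b, had 0.324 and 0.749 FPKM.

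Genes that make or use microRNAs were taken from a list of names. The gene named dcl1 (GRMZM2G040762), for DICER-LIKE1, went from 5.97 FPKM in wild type to 5.24 FPKM in hda108, a difference of -0.17. The gene named argonaute1 (GRMZM2G162525), added after the table was seen because no listed ARGONAUTE symbol matched, had 14.7 and 16.5 FPKM, a difference of 0.16. The list of makers and effectors had 5 identifiers, all compared and 0 past 2-fold. With 2.31% of all compared rows past 2-fold, that count says nothing particular of so short a list, and 3 of the 5 carry the name dcl4. The largest difference in it was that of GRMZM2G113476 (-0.70), whose name HST is used for more than 1 gene.

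Gene families known to hold microRNA target sites were also listed by name, without a search for such sites. Of 161 identifiers in 11 families 117 could be compared, and 1 was at least 2-fold higher and 0 lower (0.855%, against 2.31% of all compared rows). The median difference was 0.04. Symbols are shared between unrelated genes, so a family may hold other members. Lists for GAMYB, TIR1 and AFB, ATP sulfurylase, PHO2 and ARGONAUTE1 matched no symbol.

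The 1 gene past the limit was GRMZM2G124566, named GRF9, at 2.44 FPKM (wild type) and 6.00 FPKM (hda108), a difference of 1.15. In the GRF list 12 of 16 compared genes were above 0, with a median of 0.14. The symbol is also used for 14-3-3 proteins, as with GRMZM2G102499, which carries the name GF14-6. The SBP list had 17 compared genes and a median of 0.07, with ub3 at 3.82 and 4.59 FPKM. Its largest difference (0.74) was that of GRMZM2G085924, which is also named hsbp1.

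Laccase genes, a family acted on by miR397, had 6 of 7 compared members below 0 and a median of -0.47, with 0 past 2-fold. The examples lowest in hda108 were lac5 (GRMZM2G367668, 2.55 and 1.04 FPKM, -0.98) and GRMZM2G305526, named Laccase-17 (5.06 and 2.41 FPKM, -0.94). Another gene of that name, GRMZM2G072808, had 21.4 and 19.8 FPKM and shares its locus entry with MIR397a, which was at 0. Superoxide dismutase genes had 6 members between -0.01 and 0.42. They were not limited to the copper/zinc type, and GRMZM2G059991 and GRMZM2G124455 carry SODA names in place of SODCC. NF-YA and CA2P genes had 9 between -0.08 and 0.40, and NAC genes 13 between -0.37 and 0.53. The homeobox list, with the class III genes, had 16 between -0.83 and 0.65. The auxin response factor list had 18 between -0.22 and 0.78. Names were matched with case ignored, so GRMZM2G168898, named Hb2, and GRMZM2G395844, named arf1, may be genes of other families. TCP genes, a family acted on by miR319, had 6 between -0.32 and 0.88, and the GRAS list 7 between -0.22 and 0.39. In the GRAS list the lowest, GRMZM2G065066, and GRMZM2G065298 carry the name SCL30, and GRMZM2G044126 the names hac108 and ham101. Genes with these names may not belong to the GRAS family. Of the AP2-like genes, ids1 differed by -0.20 and sid1 by 0.03, and gl15 (glossy15) was at 0.421 and 0.306 FPKM, too low to be compared.

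**Figure D4:**
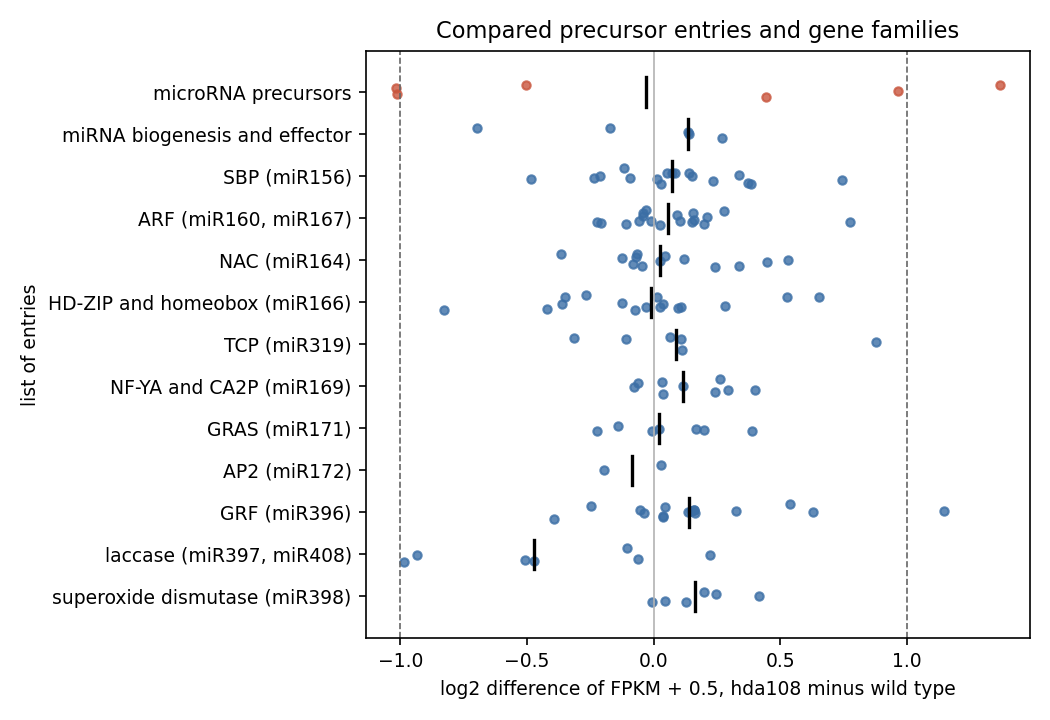
Difference of log2 (FPKM + 0.5) between the genotypes, with hda108 minus wild type on the horizontal axis, for the 6 compared precursor entries and for the compared genes of each named list (1 point per entry, black bar at the median, dashed lines at 2-fold). The precursor entries spread from -1.02 to 1.37, and in the other lists 1 gene, named GRF9, lies past a dashed line.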

How the data were processed

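The authors deposited FPKM values, 1 per gene and genotype. The build was B73 RefGen_v3, and the tools were Cuffdiff 2.2.1, Cufflinks, TopHat2 2.0.13, SAMtools, Trimmomatic 0.33 and CASAVA 1.8, per the submitters' processing notes, which give no roles or settings here. How the libraries of a genotype were combined is not given in the sources used here. The column named as homozygous was read as hda108.

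A linear model (limma) was planned for the case of values per library, and none could be fitted. The size rule described in the report was used instead. Every entry of at least 1 FPKM in a genotype was to be named. Members and lists were chosen with earlier results of these data known. Names came from RefSeq (Zm-B73-REFERENCE-NAM-5.0), which matched 152 of the 154 entries; coordinates and spans are those of the deposited table. Alternatives covered the pseudocount, the filter, scaling and the loci included. The software was pandas 2.3.3, numpy 2.4.6 and matplotlib 3.10.9 under Python 3.11.15.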

Additional observations from a re-analysis of the deposited data

How the results depend on the processing

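The number of entries past 2-fold was 3, and it was 1 with a pseudocount of 1 (MIR164c at -0.98 and MIR169j at -0.92 no longer passed) and 1 of 1 without loci under 400 bp, which leaves MIR169j alone. It was 2 or 3 with a pseudocount of 0.1, without a filter, at a mean of at least 5 FPKM, under both scalings, without shared entries and without chromosome 4. The median difference of -0.03 rests on few entries. It was -0.10 with a pseudocount of 0.1, 0.020 with a pseudocount of 1, -0.28 at a mean of at least 5 FPKM (4 entries), -0.092 with the median of all genes set to 0 and -0.10 with quantile normalization. It was -1.01 without loci under 400 bp, 0.44 without shared entries and -0.50 without chromosome 4. Of the 12 entries at 0 in 1 genotype, 2 remained without loci under 400 bp, 9 without shared entries and 10 where the other value was at least 1 FPKM. Of 24 recomputed differences of single entries, 22 stayed on their side of the limit and 0 changed sign. No paired analysis was possible because the table holds 1 value per genotype, and for that reason no library could be left out. The unknown depth limits every entry under 200 bp.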
